A study of Homo sapiens with 16 samples.

Results

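Histone H3 acetylated at lysine 27 (H3K27ac) was mapped in K562 cells by ChIP-seq, and 536 distal regions had a peak in every reaction with normalized antibody and in no reaction with more than the optimal amount of antibody. The regions were chosen from 14 peak lists. Peaks with a q-value of at most 1% were merged over the 14 lists into 170159 regions, of which 152474 had no base within 1 kb of the transcription start site (TSS) of a protein-coding gene and are called distal. A distal region entered the set if it had a peak in all 7 lists of the normalized arm and no peak in the 5 fixed-antibody lists of titer over 1. The 536 regions were 0.315% of all merged regions and 3.69% of the 14520 distal regions with a peak in all 7 normalized lists. The number rests on the lists required: without 5-T2 it was 1025, and 332 of the 536 had a base covered by peaks in all 7 normalized lists. The other 13984 of the 14520 served for comparison.

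K562 is an established erythroleukemia line. The labels give no treatment of the cells. All reactions used fixed chromatin and the same lot of an anti-H3K27ac antibody, and DNAchrom is the DNA content measured directly in the chromatin input. In the fixed arm, 0.25 µg of antibody was added to 312, 625, 1250, 2500, 5000, 10000 or 20000 ng of DNAchrom, which gave relative titers of 32, 16, 8, 4, 2, 1 and 0.5. In the normalized arm the same amounts of DNAchrom received antibody at titer 1. Libraries are named as in the labels by DNAchrom in µg and titer, H3K27ac-0.31-T32 or 0.31-T32 in short, from 0.31-T32 to 20-T0.5 in the fixed arm and from 0.31-T1 to 20-T1 in the normalized arm, and 10-T1a and 10-T1b are the reactions with 10 µg in the fixed and the normalized arm. Each condition had 1 library within its arm. Separate input libraries served the arms, and arm and input therefore cannot be told apart. In the fixed arm titer and DNAchrom change together and cannot be told apart. The lists held 64083 to 81930 peaks in the fixed arm and 68137 to 82143 in the normalized arm, lowest in 0.31-T32 and in 0.31-T1. The lists carry no read counts, and the read depth of the libraries, which the study gives elsewhere, was not used here. Of 16 erythroid marker genes, 14 to 16 had a peak within 1 kb of the TSS, among them GATA1, TAL1 and KLF1 in every list, and those without one were the globin genes HBA2 and HBE1. Of 14 lymphoid genes, 3 to 6 had a peak in the lists of the fixed arm and 2 to 3 in those of the normalized arm, CD79A and RAG1 in every list, and the part of this difference in the results was not tested.

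H3K27ac is deposited by the acetyltransferases p300 and CBP and marks active promoters and, away from promoters, active enhancers. Enhancers bind transcription factors and act on promoters over long distances. In erythroid cells they are bound by GATA1, TAL1 and KLF1, which drive globin, heme and red cell membrane genes. In ChIP, antibody in excess of its target can pull down more background.

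The regions themselves lie outside the RefSeq promoter windows of protein-coding genes by construction, but 3 of them reached into the window of a long noncoding RNA (250 bases before to 50 bases after the start). These windows are the sequence at which the set touches an annotated start. They are given 5′ to 3′ on the strand of the RNA, in GRCh38.p14 from RefSeq, with the bases covered by the region in capitals. The LOC105371651 window is chr1:185290625-185290924 on the minus strand, the MAP4K1-AS1 window is chr19:38596097-38596396 on the plus strand and the LOC105372798 window is chr21:37559769-37560068 on the plus strand.
LOC105371651: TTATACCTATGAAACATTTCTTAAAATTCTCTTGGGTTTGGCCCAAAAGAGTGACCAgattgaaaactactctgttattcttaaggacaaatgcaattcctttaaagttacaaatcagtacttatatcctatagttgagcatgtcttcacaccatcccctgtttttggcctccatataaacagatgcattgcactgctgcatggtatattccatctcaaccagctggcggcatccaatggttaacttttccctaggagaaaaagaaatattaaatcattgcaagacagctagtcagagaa
MAP4K1-AS1: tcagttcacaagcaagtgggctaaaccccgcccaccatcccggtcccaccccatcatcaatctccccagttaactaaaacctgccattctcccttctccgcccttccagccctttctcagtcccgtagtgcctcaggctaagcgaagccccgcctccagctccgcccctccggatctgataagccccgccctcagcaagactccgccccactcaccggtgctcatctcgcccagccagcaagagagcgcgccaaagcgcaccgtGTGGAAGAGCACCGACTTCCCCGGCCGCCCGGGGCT
LOC105372798: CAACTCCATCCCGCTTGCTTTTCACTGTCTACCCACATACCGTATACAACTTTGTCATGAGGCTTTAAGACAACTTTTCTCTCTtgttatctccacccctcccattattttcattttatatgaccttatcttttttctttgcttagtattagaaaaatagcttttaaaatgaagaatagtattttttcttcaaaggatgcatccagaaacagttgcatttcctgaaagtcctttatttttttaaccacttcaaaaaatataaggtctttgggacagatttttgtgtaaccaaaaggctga

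The overlap was 57 bases for LOC105371651, 36 for MAP4K1-AS1 and 84 for LOC105372798. The GC content of the windows was 37.3%, 63.7% and 33.7%, against a median of 58.7% over 35116 RefSeq promoter windows of 300 bases. The letters AGATAA, a form of the GATA motif, occurred 2 times in the LOC105372798 window on either strand, and 10.3% of all windows held at least 1 match. TGATAA occurred 1 time in the MAP4K1-AS1 window and in 7.53% of all windows. TGANTCA with C or G at N, the AP-1 motif, matched none of the 3 windows and 4.95% of all windows. All motif matches lay outside the capitals, so that these letters were not part of the enriched regions. The LOC105371651 region had a peak in both 10-T1a and 20-T0.5, the LOC105372798 region in 10-T1a alone and the MAP4K1-AS1 region in neither.

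The rule left 2 fixed-arm libraries unused, 10-T1a at titer 1 and 20-T0.5 at titer 0.5. Neither of them had antibody in excess of the optimal titer, and they are used here to describe the set. Of the 536 regions, 220 (41.0%, 95% Wilson interval 37.0 to 45.3) had a peak in 10-T1a, where 92.9% of the 14520 distal regions with a peak in all 7 normalized lists and 26.2% of all distal regions had one. In 20-T0.5, 245 regions (45.7%, 41.5 to 49.9) had a peak, against 92.8% of the 14520 and 23.5% of all distal regions. When peaks of the fixed-arm library had to cover at least 50% of the bases of the normalized peak at the same DNAchrom, the shares of the set were 14.2% and 15.3%. Shares of other regions under this requirement are not given, and the 92.9% and 92.8% cannot be set against these values. Both libraries held a peak for 139 regions (25.9%, against 89.1%), and exactly 1 of them did for 187. For 210 regions (39.2%, against 3.34%) no fixed-arm library had a peak at any titer. These 210 regions were thus without a peak at titers 1 and 0.5 of the fixed arm as well as at the titers over 1. The reason was not tested. At titers over 1, antibody amount, arm and input cannot be told apart in it. At 10 µg of DNAchrom, 10-T1a without a peak and 10-T1b with one had the same titer. Between these libraries, arm and input cannot be told apart. The set is named here by its rule. The intervals cover counting error over regions only, as there is 1 library per condition within an arm.

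The share in 10-T1a and 20-T0.5 rose with the number of excess-titer lists that held the region. Distal regions with a peak in all 7 normalized lists were grouped by how many of the 5 lists of titer over 1 had a peak. Among the 872 regions with a peak in 1 of these lists, 67.1% had a peak in 10-T1a and 68.7% in 20-T0.5. Among the 1216 regions with 2 lists, the shares were 85.1% and 85.0%. Among the 7960 regions with all 5 lists they were 99.6% and 99.2%. The 536 regions sat at the low end of this graded series, whose groups are set by lists that the rule used. The median length of the regions rose along the same groups, from 1060 bp in the set to 1252 bp, 1422.5 bp and, with all 5 lists, 3179.5 bp. The median of the mean percentile, which is the rank of a region's strongest peak by fold enrichment within each list, averaged over the 7 normalized lists, rose from 51.3 to 54.0, 56.5 and 79.8.

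**Figure D1:**
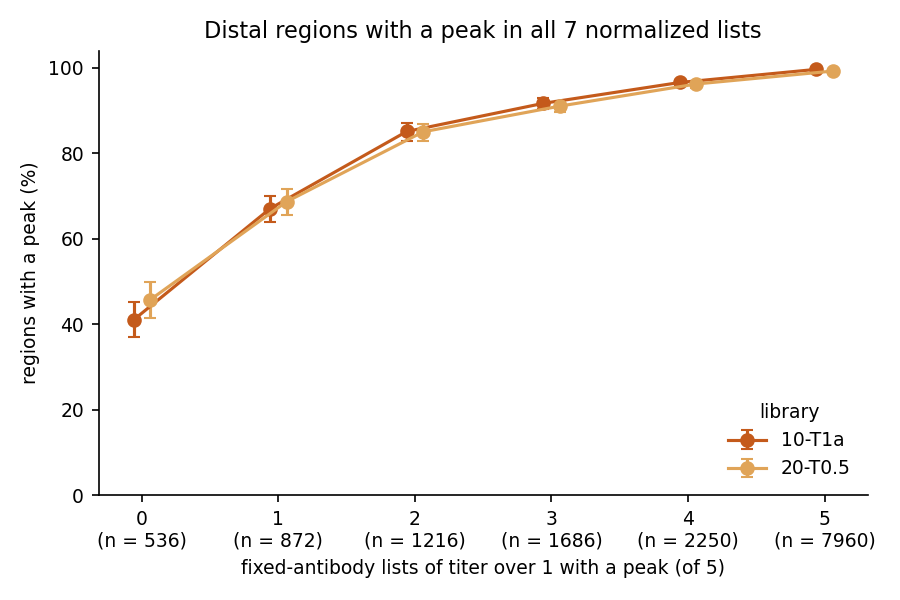
Percentage of distal regions with a peak in 10-T1a (dark orange) and 20-T0.5 (light orange), on the vertical axis, by the number of the 5 fixed-antibody lists of titer over 1 that had a peak, on the horizontal axis, with 95% Wilson intervals as bars. The 536 regions are the leftmost points, at 41.0% and 45.7%, and the share reaches 99.6% and 99.2% at the right.

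The reactions 10-T1a and 10-T1b had the same amount of DNAchrom and the same titer in different arms. To compare them, the rule was applied without 10-T1b, so that neither library took part in it. The rule still required peaks in the other normalized lists and none in 5 lists of the fixed arm. It therefore favoured the normalized arm, and the direction of a difference may follow from it. Without 10-T1b the rule gave 599 regions. Of these, 89.5% (95% Wilson interval 86.8 to 91.7) had a peak in 10-T1b and 39.2% (35.4 to 43.2) in 10-T1a. Without 20-T1 the rule gave 601 regions, of which 89.2% (86.4 to 91.4) had a peak in 20-T1 and 44.1% (40.2 to 48.1) in 20-T0.5. The left-out library held 90.1% of 595 regions for H3K27ac-1.25-T1, 86.7% of 618 for 5-T1, 82.1% of 653 for 2.5-T1, 78.8% of 680 for 0.62-T1 and 70.2% of 763 for 0.31-T1. A left-out normalized library therefore held 70.2% to 90.1% of the regions, whereas 10-T1a held 37.7% to 40.3% and 20-T0.5 held 41.7% to 44.6% of the same regions. The shares in 10-T1a and 10-T1b, at equal titer and equal DNAchrom, come from 1 library each, so that the difference between them was not tested and has no replicate check. The arm and its input library cannot be told apart in it.

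**Figure D2:**
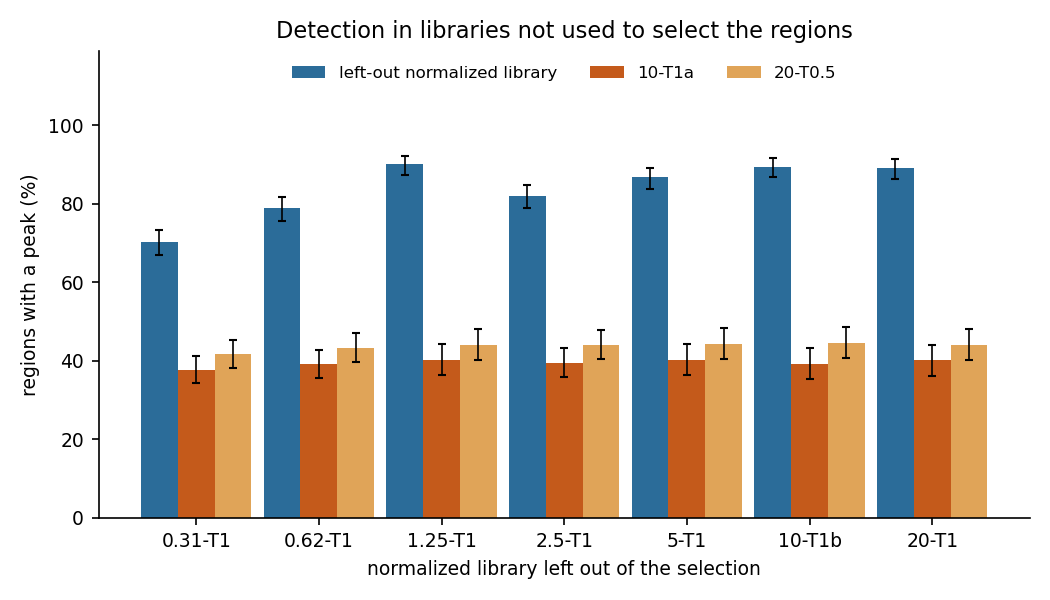
Percentage of regions with a peak (vertical axis) in a normalized library left out of the selection (blue), in 10-T1a (dark orange) and in 20-T0.5 (light orange), by which normalized library was left out (horizontal axis), with 95% Wilson intervals. Every blue bar, from 70.2% to 90.1%, is above both orange bars beside it, which lie between 37.7% and 44.6%. The rule itself favoured the normalized arm in this comparison.

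The lower share of the set was also seen within classes of rank. Those of the 14520 regions with a mean percentile in the range of the set, 0.355 to 85.1, were put into 5 classes with about equal numbers of the set in each. Other distal regions outside this range fell in no class. The highest class was wide, from 61.9 to 85.1, with 107 regions of the set and 5980 others, so that rank was only loosely matched there. In the lowest class, 31.5% of the regions of the set and 81.0% of the other distal regions had a peak in 10-T1a. In the highest class the values were 53.3% and 97.9%. In 20-T0.5, 28.7% of the regions of the set and 79.3% of the others had a peak in the lowest class. In the highest class it was 63.6% and 98.0%. The mean percentile comes from lists that the rule used, so that these classes are a description.

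Most regions of the set had no weaker peak in the lists that the rule required to be empty. The deposited lists extend to a q-value of 5.00%, and 132 regions (24.6%) had such a weaker peak in at least 1 of the 5 excess-titer lists, while 404 (75.4%) had none. At titer 32 only such a peak was found for 10 regions, at titer 16 for 14, at titer 8 for 18, at titer 4 for 31 and at titer 2 for 77, which is 1.87% to 14.4% of the set. Of all the other distal regions, 4.14% had only such a peak at titer 32, then 3.13%, 2.34% and 1.72%, and 1.52% at titer 2. These series have unlike bases and cannot be set against each other. By the rule, no region of the set had a peak at a q-value of at most 1% in these lists. Of the other distal regions, 69.0% had one at titer 32 and 94.6% at titer 2, and only the rest could have a weaker peak alone. In the set, 41 regions (7.65%) had only a weaker peak in 10-T1a and 37 (6.90%) in 20-T0.5. The shares were 1.08% and 1.22% of the other distal regions, most of which had a peak at a q-value of at most 1% there. Of the 210 regions with no peak in any fixed-arm list, 41 (19.5%) had a weaker peak in an excess-titer list, against 43 (30.9%) of the 139 regions with a peak in both 10-T1a and 20-T0.5. The 210 regions had a median mean percentile of 48.7 against 54.1, a median length of 985.5 bp against 1129 bp and 59.5% against 60.4% inside the body of a protein-coding gene.

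Within the normalized arm, the regions were peaks of middle rank. The median fold enrichment over the 536 regions, as deposited by the authors, was 4.90 in 0.31-T1, 4.83 in 0.62-T1, 5.08 in H3K27ac-1.25-T1, 4.77 in 2.5-T1, 5.02 in 5-T1, 5.36 in 10-T1b and 5.64 in 20-T1. The other distal regions had medians from 6.24 to 7.76 in the same libraries, higher in each of them. Fold enrichment is relative to the local background of the library and is not a measure of absolute acetylation. The set had a median percentile of 48.1 in 0.31-T1, and from 0.62-T1 upward it was 52.1 to 58.8. The median length covered by peaks was 409.5 bp in 0.31-T1 and 617.5 bp in 20-T1, against 1023.5 and 1485.5 bp in the other distal regions.

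Where 10-T1a or 20-T0.5 held a region, its peak was in most cases lower than in the normalized library of the same DNAchrom. The median fold enrichment was 4.27 over the 220 regions in 10-T1a and 4.36 over the 245 regions in 20-T0.5. Paired by region, fold enrichment was lower in 10-T1a than in 10-T1b for 179 of 220 regions (81.4%), with a median log2 ratio of -0.38, against 58.8% and -0.11 over the other distal regions. It was lower in 20-T0.5 than in 20-T1 for 204 of 245 regions (83.3%), with a median log2 ratio of -0.45, against 61.1% and -0.14. The median covered length was 286 bp in 10-T1a and 639.5 bp in 10-T1b over the same 220 regions. The regions had to be peaks in 10-T1b and 20-T1 to be chosen, so that these ratios are a description with no test.

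**Figure D3:**
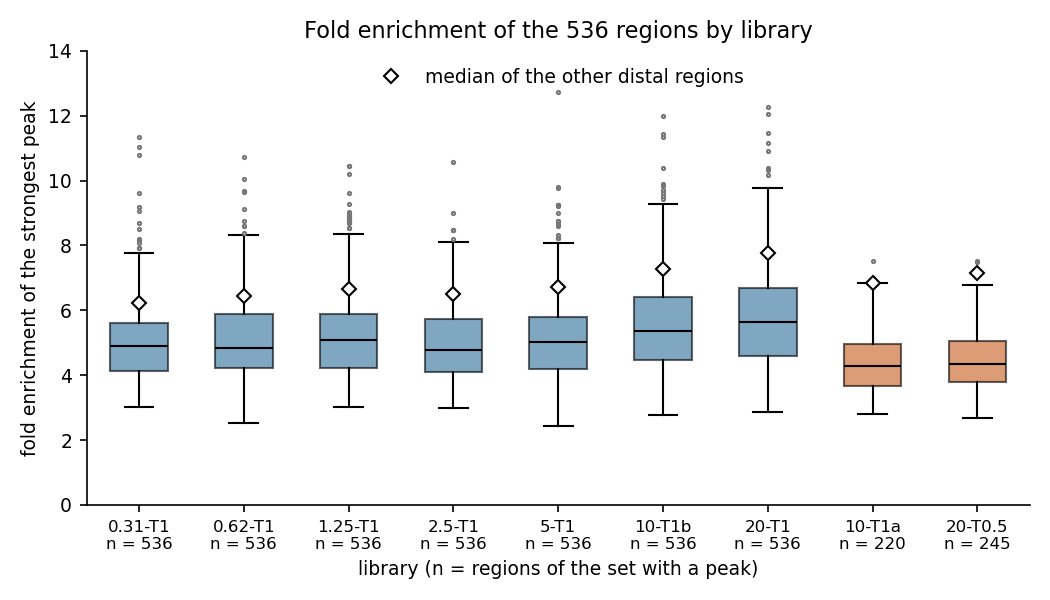
Fold enrichment of the strongest peak (vertical axis, as deposited by the authors) for the regions of the set, in the 7 normalized libraries (blue) and in 10-T1a and 20-T0.5 (orange), with n the regions that had a peak. Boxes span the quartiles with the median as a line, whiskers reach 1.5 interquartile ranges, and diamonds are the medians of the other distal regions, which lie above the median of the set in all 9 libraries.

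At titer 1 throughout, in the normalized libraries, the medians of the set moved with the amount of DNAchrom. Over the 7 libraries, Pearson's r with log2(DNAchrom) was 0.795 for the median fold enrichment, with a Spearman's rho of 0.679. For the median percentile r was 0.795 and rho was 0.714, and for the covered length r was 0.885 and rho was 0.929. Over the 5 libraries that remain without the 2 farthest from the median amount, r was 0.682, 0.533 and 0.700. The smallest amount, 0.31-T1, had the lowest percentile and the shortest covered length, and 20-T1 had the highest fold enrichment. The rule required a peak in each of these 7 lists, so that the values are not independent of it and the correlations are a description with no test.

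The other distal regions had the same direction, with r of 0.908 for fold enrichment, 0.724 for percentile and 0.892 for length. In a comparison chosen after the data were seen, the log2 ratio of the median fold enrichment of the set to theirs was between -0.46 and -0.35, with r of -0.838 over the 7 libraries and of -0.553 without the 2 farthest. For the difference in percentile r was 0.633 and for the log2 ratio of length it was 0.368.

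**Figure D4:**
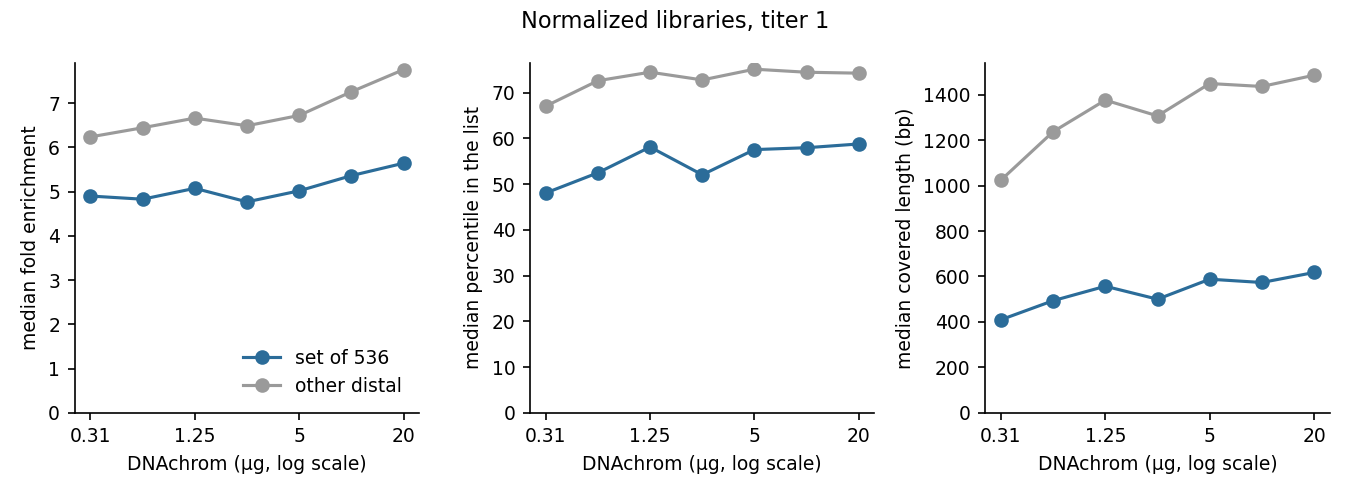
Median fold enrichment, median percentile within the list and median covered length in bp (vertical axes of the 3 panels) against DNAchrom in µg on a log scale, in the 7 normalized libraries, for the 536 regions (blue) and the other distal regions (grey). Blue lies below grey in every library, and median covered length goes from 409.5 bp at 0.31 µg to 617.5 bp at 20 µg in the set.

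The regions were shorter than the other distal regions. Their length ran from 291 to 3258 bp, and its median of 1060 bp compared with 2306.5 bp in the other distal regions. The distance to the nearest protein-coding TSS was 1065 bp to 1816480 bp with a median of 28494 bp, against 24169 bp. Within 10 kb of a TSS lay 127 regions (23.7%, against 3777 of the 13984 others), and 116 (21.6%, against 15.3%) lay beyond 100 kb. The body of a protein-coding gene held 317 regions (59.1%, against 59.7%), that of a long noncoding RNA alone held 59 (11.0%) and the remaining 160 (29.9%, against 26.9%) lay in neither. The annotation used gives the bounds of genes, so that exons and introns were not told apart. The median distance to the nearest merged region with a peak in all 14 lists, promoters included, was 17155 bp, against 7709 bp for the other distal regions. Such a region lay within 2 kb for 123 (22.9%, against 31.2%) and within 10 kb for 211 (39.4%, against 54.7%).

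A peak in all 7 lists was not always the same stretch of DNA. In 332 regions (61.9%, against 85.1% of the other distal regions) at least 1 base was covered in all 7 normalized lists. In 139 regions the most any base had was 6 lists, and in some it was 4. The summits of the strongest peaks spread over a median of 559 bp, against 727 bp. For the 332 regions with a common base the share with a peak was 40.4% in 10-T1a and 48.5% in 20-T0.5, close to those of all 536.

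The 12 regions with the highest mean percentile were led by a region inside RHCE, which encodes the protein with the C and E antigens of the Rh blood group. The region, chr1:25414042-25414839, lay 5986 bp from the TSS and 2944 bp from a region with a peak in all 14 lists. Its fold enrichment was 11.3 in 0.31-T1, 10.7 in 0.62-T1, 7.83 in H3K27ac-1.25-T1, 8.48 in 2.5-T1, 8.23 in 5-T1, 10.4 in 10-T1b and 11.5 in 20-T1. In 10-T1a it was 4.01 and in 20-T0.5 it was 4.89, both below the lowest normalized value. The 5 excess-titer lists held no peak there, as the rule requires, not even at a q-value of 5.00%.

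Next came regions near IFT81, a component of intraflagellar transport, and inside QSOX2, a sulfhydryl oxidase, both without a peak in 10-T1a and 20-T0.5. The region chr12:110100141-110101726, 22631 bp from IFT81, had fold enrichments of 6.87 to 12.0 with a median of 9.77 over the 7 normalized libraries. It lay 689 bp from a region present in all 14 lists. The QSOX2 region, chr9:136236209-136238010, had 6.47 to 12.7 with a median of 10.0, lowest in 20-T1 and highest in 5-T1, and a weaker peak of q over 1% in 5-T2.

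A region inside HIPK3, a protein kinase gene, was held by both unused libraries. At chr11:33342206-33344367 it had 7.03 to 10.6 with a median of 8.97 in the normalized arm, 5.72 in 10-T1a and 4.78 in 20-T0.5. The region at chr5:154652965-154654026 was 28953 bp from LARP1, which binds mRNAs of the translation machinery. It had 6.39 to 9.79 with a median of 8.97 and no peak in 10-T1a or 20-T0.5, although a region with a peak in all 14 lists lay 151 bp away. The shortest of the 12, 357 bp at chr5:34245789-34246145, was 1065 bp from C1QTNF3, a secreted protein of the C1q and TNF family, which is the closest to a TSS in the set. Its 7.10 to 8.87 in the normalized arm overlapped with 7.52 in 10-T1a and 7.17 in 20-T0.5.

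The other 6 of the 12 lay near AKAP13, ERMN, SLC7A14, FBN3, BTG1 and TMEM68. Near AKAP13, which anchors protein kinase A, the normalized values were 6.44 to 9.75 and 10-T1a had 4.30. Inside GALNT5, a glycosyltransferase gene whose nearest neighbouring TSS was that of ERMN, they were 6.66 to 8.99 and 20-T0.5 had 4.15. Near SLC7A14, a member of a family of amino acid transporters, a region of 3214 bp had 6.04 to 11.0, with 6.02 in 10-T1a and 3.76 in 20-T0.5. BTG1 restrains proliferation, and 69366 bp from its TSS the values were 5.67 to 10.3, with 5.91 in 10-T1a and 4.77 in 20-T0.5. Near FBN3, a fibrillin gene, they were 6.95 to 10.4, with 6.18 and 7.24, so that 20-T0.5 fell within the range. Near TMEM68 they were 6.23 to 8.76, and both unused libraries had only a peak of q over 1%. Of the 12 regions, 7 had a peak in 10-T1a, 7 in 20-T0.5, 6 in both and 4 in neither. They were picked by their rank in the normalized lists, so that lower values in 10-T1a and 20-T0.5 may follow from the choice.

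**Figure D5:**
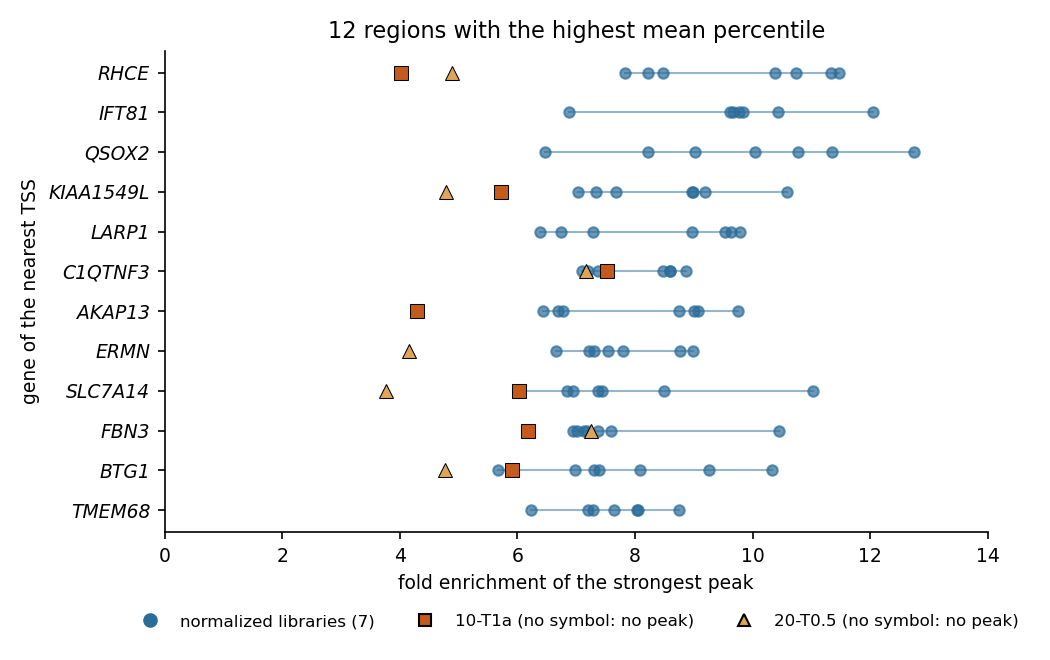
Fold enrichment of the strongest peak (horizontal axis) in the 12 regions with the highest mean percentile (vertical axis, by the gene of the nearest TSS), in the 7 normalized libraries (blue circles, joined by a line), 10-T1a (squares) and 20-T0.5 (triangles). A missing square or triangle means no peak at a q-value of 1%. For RHCE, KIAA1549L, AKAP13, ERMN and SLC7A14 the fixed-arm symbols lie left of all blue circles. The 12 were picked for high rank in the normalized libraries, so that lower fixed-arm values may follow from the choice.

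Regions of the set lay at several genes of the red cell membrane. By nearest TSS, 7 of 536 regions (1.31%) belonged to a list of 28 red cell surface and membrane genes, against 71 of the 13984 other distal regions (0.508%). Among these were single regions at RHCE, RHD, GYPB and RHAG and 2 at SLC4A1. A list of 15 heme synthesis genes had 1 region, at CPOX (0.187%, against 0.129% of the other distal regions), and a list of 17 iron genes had 1, at TFRC (0.187%, against 0.243%). A list of 25 STAT5 and BCR-ABL1 signalling genes had 3, at ABL1, MYC and SOS1 (0.560%, against 0.586%). The 19 erythroid transcription factors and cofactors had 0, against 52 other distal regions, and the lists of globin, megakaryocyte, progenitor and myeloid factor, acetylation and lymphoid genes had 0 as well, against 4, 26, 56, 32 and 19. Over all lists it was 12 regions (2.24%), against 2.73% of the other distal regions. The lists are small and the nearest TSS need not be the target of a region, and nothing particular to a list is read from these counts.

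RHD, which encodes the D antigen, held a region at chr1:25286851-25287593, 14342 bp from its TSS and also within the annotated bounds of RSRP1. Its fold enrichment was 3.67 to 6.13 with a median of 5.10 over the 7 normalized libraries, with no peak in 10-T1a or 20-T0.5 and a weaker one in 2.5-T4. RHD and RHCE are near-identical neighbours, and the 250 bases before one annotated start of each differ at 2 positions, which are in capitals below. They are shown as a measure of how alike the genes are at their starts. The sequence of the regions themselves was not compared, and as reads of close copies can be hard to place, the values of both regions are uncertain. The RHD stretch is chr1:25272259-25272508 on the plus strand and the RHCE stretch is chr1:25420826-25421075 on the minus strand, both 5′ to 3′ on the gene's strand in GRCh38.p14 from RefSeq.
RHD: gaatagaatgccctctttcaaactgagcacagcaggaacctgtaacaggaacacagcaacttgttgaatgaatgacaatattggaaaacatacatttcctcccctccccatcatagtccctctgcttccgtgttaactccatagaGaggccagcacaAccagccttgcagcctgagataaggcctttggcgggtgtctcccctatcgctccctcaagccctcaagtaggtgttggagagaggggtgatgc
RHCE: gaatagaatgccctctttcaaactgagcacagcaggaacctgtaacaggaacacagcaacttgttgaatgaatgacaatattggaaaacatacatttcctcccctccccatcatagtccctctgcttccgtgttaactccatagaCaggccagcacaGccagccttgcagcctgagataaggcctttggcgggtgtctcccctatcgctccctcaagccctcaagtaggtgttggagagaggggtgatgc

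GYPB encodes a sialoglycoprotein of the red cell surface and also has close copies in the genome. Inside it, chr4:144007340-144008293 had fold enrichments of 4.63 to 8.60 with a median of 7.83, no peak in 20-T0.5 and only a weaker one in 10-T1a. RHAG, the partner of the Rh proteins in the membrane, held chr6:49623275-49624879 with 3.35 to 6.97, 3.91 in 10-T1a and 3.32 in 20-T0.5, with no base common to all 7 lists. The value of 10-T1a was at the low end of its normalized range and that of 20-T0.5 just below it.

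SLC4A1 encodes band 3, the anion exchanger of the red cell. A region that reached into the gene, chr17:44246305-44248629, had 3.96 to 6.23 with a median of 5.26, 3.51 in 10-T1a and 4.22 in 20-T0.5. Its neighbour just outside the gene, chr17:44245459-44246074, had 3.83 to 6.01 with a median of 5.22 and a peak in neither. Inside ERMAP, which carries the Scianna blood group, chr1:42843423-42845487 had 3.96 to 6.82, with 3.98 in 20-T0.5 and its nearest TSS that of ZNF691. Inside EPB41, which encodes protein 4.1 of the membrane skeleton, chr1:29046758-29047602 had 3.61 to 4.62 and a peak in neither library.

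Regions also lay inside a heme gene and an iron gene. Inside CPOX, the coproporphyrinogen oxidase of heme synthesis, chr3:98577064-98578069 had 3.60 to 5.24 with a median of 4.85. Inside TFRC, the transferrin receptor, chr3:196061499-196062366 had 3.31 to 7.45 with a median of 4.37. Both were without a peak in 10-T1a and 20-T0.5. CBFA2T3, a corepressor that joins TAL1 and GATA1 complexes, held chr16:88892029-88894161 with 4.11 to 6.38 and with 3.91 in 20-T0.5.

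At the signalling genes the values were low to moderate. In PVT1, a long noncoding RNA downstream of the transcription factor gene MYC, chr8:127884613-127886150 lay 149179 bp from the MYC TSS and 749 bp from a region with a peak in all 14 lists. It had 4.51 to 7.45 with a median of 5.27, 4.43 in 20-T0.5 and only a weaker peak in 10-T1a. Near SOS1, an activator of Ras, chr2:39152903-39153544 had 3.79 to 8.32 with a median of 4.37 and a peak in neither library. Inside ABL1, the kinase gene of the BCR-ABL1 fusion that K562 carries, chr9:130842418-130842977 had 2.43 to 3.07 with a median of 2.87, the lowest mean percentile in the set, 0.355. Of the 15 regions at genes of the lists, 3 of them by gene body alone, 4 had a peak in 10-T1a, 7 in 20-T0.5 and 8 in neither, and 8 had a base common to all 7 normalized lists.

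Just above ABL1 in rank were a region inside TRAPPC10, a subunit of a vesicle trafficking complex, with a mean percentile of 7.68 and fold enrichments of 3.13 to 3.81, and a region near CYP2A7, a cytochrome P450 gene, with 18.1 and 3.51 to 3.90. None of these 3 lowest regions had a peak in 10-T1a or 20-T0.5. The longest regions were 3258 bp inside CELF2, an RNA-binding splicing regulator, 3214 bp near SLC7A14, 2881 bp inside CAPZA1, an actin capping protein, 2723 bp near CIBAR1 and 2660 bp inside FAM13A. The CELF2 region had fold enrichments of 4.21 to 6.22 and no base common to all 7 lists. The CAPZA1 region had 4.71 to 8.65, highest in 20-T1, with 3.63 in 10-T1a, and the FAM13A region had 4.18 to 6.51 with 18 common bases and 4.42 in 20-T0.5.

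Most regions stood alone. The 536 regions had 496 different nearest genes, and 18 pairs of neighbours lay within 10 kb of each other. Near 4 genes there were 3 or more regions. Upstream of CIBAR1, which takes part in cilium formation, 5 regions spread over 277984 bp of chromosome 8, inside the long noncoding RNA CIBAR1-DT, with median fold enrichments of 4.14 to 6.19, and 4 of the 5 had a peak in at least 1 of 10-T1a and 20-T0.5. Inside AFF1, which encodes a scaffold of the super elongation complex, 3 regions of 804, 1223 and 1194 bp lay within 11704 bp, with median fold enrichments of 4.42, 4.21 and 4.64. Inside CLEC16A, a regulator of mitophagy, 3 regions spread over 97275 bp with medians of 4.66, 4.13 and 4.89. At 434529 to 648410 bp from GABRG1, a GABA receptor subunit gene, there were 3 with medians of 4.70, 4.66 and 5.30. None of the 9 regions in AFF1, CLEC16A and near GABRG1 had a peak in 10-T1a or 20-T0.5, unlike those near CIBAR1. These 4 loci were picked for their number of regions, and neighbouring regions are not independent.

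Regions of the set were found on chromosomes 1 to 22 and X and on contigs. As a share of the distal regions with a peak in all 7 normalized lists, they were 6.42% on chromosome 18 (14 regions), 5.60% on X (22), 5.08% on chromosome 4 (29) and 1.84% on chromosome 22 (7), against 3.69% in all. These shares are a description with no test.

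The threshold of the rule cut through a continuum. Among the members, the lowest -log10 q over the 7 normalized lists was nearest to the limit of 2 at 2.01 inside KNTC1, a kinetochore gene, and at 2.02 in 7 tied regions, of which those near ESM1 and near ZNF438 were named. Just outside, 3 regions tied at 1.99 in 0.31-T1, near VIM, HBS1L and WSB1, and met the rule otherwise. The KNTC1 region, chr12:122591690-122592516, had fold enrichments of 3.36 to 6.65 and 3.86 in 20-T0.5. The HBS1L region, chr6:135073715-135074240, is not counted in the set.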

How the data were processed

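H3K27ac ChIP-seq of K562 was represented by 14 peak lists from 16 libraries, the other 2 being inputs without a list. The authors sequenced paired ends and called peaks in each library with MACS2 in Partek Flow. The submitters' processing notes name CASAVA 1.4, BWA 0.5.9 and hg38, the study's methods name hg19, and contig names and positions in the lists are those of GRCh38, which was used without conversion. For each peak the authors deposited its fold enrichment over the local background, the -log10 p-value and the -log10 q-value. The lists reach a q-value of 5.00%, and peaks were kept from a -log10 q of 2 upward. Read depth is not part of the lists.

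Overlapping or touching peaks of the 14 lists were merged, and a merged region had a peak in a list if they shared a base. The value of a region in a list is the fold enrichment of its strongest peak there, or its percentile among all peaks of that list. TSSs were 28775 starts of 20033 protein-coding genes of RefSeq GRCh38.p14. The strand came from the RefSeq promoter table for 15841 genes and by symbol from GENCODE for 3830, and both ends were used for 362. Shares carry 95% Wilson intervals. Trends over the 7 normalized libraries were given as correlations after Pearson and Spearman. The exact permutation tests planned for them are not printed, as the rule used the same lists. No test compares the arms, since each condition had 1 library within its arm. The merging and the correlations were checked on simulated data.

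The members, gene lists and tests were chosen with earlier results of these data known. Regions named are the 12 with the highest and the 3 with the lowest mean percentile, those at genes of the fixed lists, the 5 longest, and 3 on each side of the threshold. The loci with 3 or more regions, and the long noncoding RNA windows, were added after their values were seen. One region at a gene of the lists is counted but not reported here. Alternatives were other q-value and TSS limits, chromosome sets, overlap rules, scales and leaving out each library. Sequences of the regions were not read, as a GRCh38 genome was not used here. Python 3.11.15, numpy 2.4.6, pandas 2.3.3, scipy 1.17.1 and matplotlib 3.10.9 were used.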

Additional observations from a re-analysis of the deposited data

Results flagged for a closer look

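Over the 7 normalized libraries, 2 of 38 groups of values that were tested had 1 library far from the others by Dixon's criterion, which chance alone gives in about 1 in 20 groups. Near FBN3 the fold enrichment reached 10.4 in H3K27ac-1.25-T1, while the other libraries had 6.95 to 7.59. Near SOS1 it reached 8.32 in H3K27ac-1.25-T1, while the others had 3.79 to 4.63.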

How the results depend on the processing

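The number of regions stayed within 1.5 times 536 in 18 of 20 alternatives. It was 1025 without 5-T2 and 332 when 1 base had to be common to all 7 normalized lists, an alternative added after seeing the data. Leaving out each list of the rule gave 577 to 1025 regions, with a share of 37.7% to 54.8% in 10-T1a and 41.7% to 59.8% in 20-T0.5, highest without 5-T2 and, at 48.0% and 51.7%, next without 2.5-T4. From a -log10 q of 5 upward the shares were 53.0% and 55.6%. When at least 50% of the bases of the normalized peak had to be covered, they were 14.2% and 15.3%.

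For the correlations with DNAchrom, leaving out each library gave r of 0.642 to 0.887 for fold enrichment, 0.642 to 0.934 for percentile and 0.821 to 0.943 for length. On a linear scale of DNAchrom, r was 0.623 for percentile and 0.723 for length. With means in place of medians, r was 0.702 for percentile. No direction turned in any alternative, and apart from the construction of the alternatives the cause was not tested. No paired analysis was possible because the results are counts, shares and correlations within 1 arm, and none comes from a test between the arms, although their libraries match in DNAchrom.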

Other observations

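The mirrored rule, a peak in each of the 5 excess-titer lists with none in the normalized arm, was met by 47 distal regions. Of these, 28 (59.6%, 95% Wilson interval 45.3 to 72.4) had a peak in 10-T1a and 23 (48.9%, 35.3 to 62.8) in 20-T0.5. Of all distal regions, 26.2% and 23.5% had one. Where distal regions had a peak in all 5 excess-titer lists and in every normalized list, the shares were 99.6% and 99.2%. Shares over all distal regions with a peak in the 5 excess-titer lists are not given. Whether the 47 regions differ from these was not tested.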
